A study of Arabidopsis thaliana with 16 samples.

Results

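The cortex and the endodermis are the ground tissue of the Arabidopsis thaliana root, the layers between the epidermis outside and the stele, the central cylinder with the vascular tissue, inside. A set of 46 genes was examined whose transcripts were high in sorted cells of both layers and low in the other sorted root cells. The genes were chosen by mean signals of these same arrays: a gene was taken when its probe set, the group of short probes that reads its transcript on the array, had a mean signal of at least 200 in cortex and in endodermis and when the lower of these means was at least 2 times the highest mean of epidermis, columella and stele. Of 22746 probe sets without controls, 106 met these means. Of the 106, 46 were placed on a nuclear chromosome by the array annotation and form the set, 22 belonged to plastid or mitochondrial genes and 38 had no gene listed. The annotation placed 13898 probe sets in the nucleus. Of the 46 probe sets, 45 listed 1 gene and 1 listed a pair of neighbouring genes, AT4G34930 and AT4G34920.

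Cortex and endodermis arise from the same stem cells, whose daughters divide lengthwise into an outer cortical and an inner endodermal cell, under the transcription factors SHORT-ROOT and SCARECROW. The endodermis then seals its walls with the Casparian strip, a lignin band that stops passive flow between outer tissue and stele, and later with suberin. The cortex stores metabolites, exchanges solutes with the epidermis and forms air spaces.

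The RNA came from Columbia roots of seedlings 6 days after germination that had been moved for 24 h to medium lacking iron with 0.3 mM ferrozine, a chelator of ferrous iron. Roots were digested to protoplasts and cells with green fluorescent protein were sorted, each population from its own reporter line. These were CORTEX for cortex (n = 3 arrays), SCR::GFP for endodermis with quiescent center (n = 3), WER::GFP for epidermis with lateral root cap (n = 4), PET111 for columella (n = 3) and WOL::GFP for stele (n = 3), so that a population and its line cannot be told apart. They are called cortex, endodermis, epidermis, columella and stele from here on. The RNA was amplified in 2 cycles before hybridization, and every array came from roots without iron. With no array from roots with iron, whether any value is a response to iron cannot be told. In sorted cells, as in any bulk sample, fewer cells of a type and less RNA per cell cannot be told apart.

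The layers were checked by their marker genes, of which the annotation names 8 of 39. COR, a cortex marker, had signals of 1409, 533 and 565 in cortex, 69.4, 55.6 and 45.8 in endodermis, 20.1, 22.5, 26.8 and 61.8 in epidermis, 25.6, 17.99 and 7.03 in columella and 16.4, 38.7 and 12.9 in stele. SGN3, a receptor kinase needed for a closed Casparian strip, had 998, 1285 and 947 in cortex, 4447, 5956 and 5932 in endodermis, 49.8, 48.8, 43.8 and 111 in epidermis, 79.8, 106 and 51.6 in columella and 839.6, 669 and 427 in stele. Each marker was highest in its own layer, and SGN3 was also 427 or more in every stele array. The other cortex marker, CO2, was between 1.86 and 42.6 in all arrays and is at the bottom of the scale. EXPA7, an expansin of root hairs, had signals in cortex of 147, 752 and 260.0, signals in endodermis of 161, 82.2 and 5.76 and signals in epidermis of 512, 352, 235 and 241, so that this hair gene was brighter in cortex replicate 2 than in any epidermis array. Summed over the 3 named epidermis markers of 8 listed, the signal ranged from 322 to 1326 in cortex, 144 to 365 in endodermis, 470 to 1132 in epidermis, 130 to 241 in columella and 391.7 to 668 in stele. Of the 9 stele markers listed none was named, and of the 6 columella markers RCPG was named, with 33.3 to 225 in cortex, 177 to 772 in endodermis, 817 to 3737 in epidermis, 6916 to 7878 in columella and 21.6 to 96.6 in stele. AGL42, a quiescent center marker, had 158, 107 and 149.8 in cortex, 264, 254 and 195 in endodermis and at most 70.9 elsewhere. The part of other cells in the results was not tested. Epidermis replicate 4 stood apart: its signals correlated with those of cortex arrays at 0.898 to 0.916 across probe sets, against 0.834 to 0.872 for the other epidermis arrays. The 2% trimmed mean was 250.0 in every array.

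**Figure D1:**
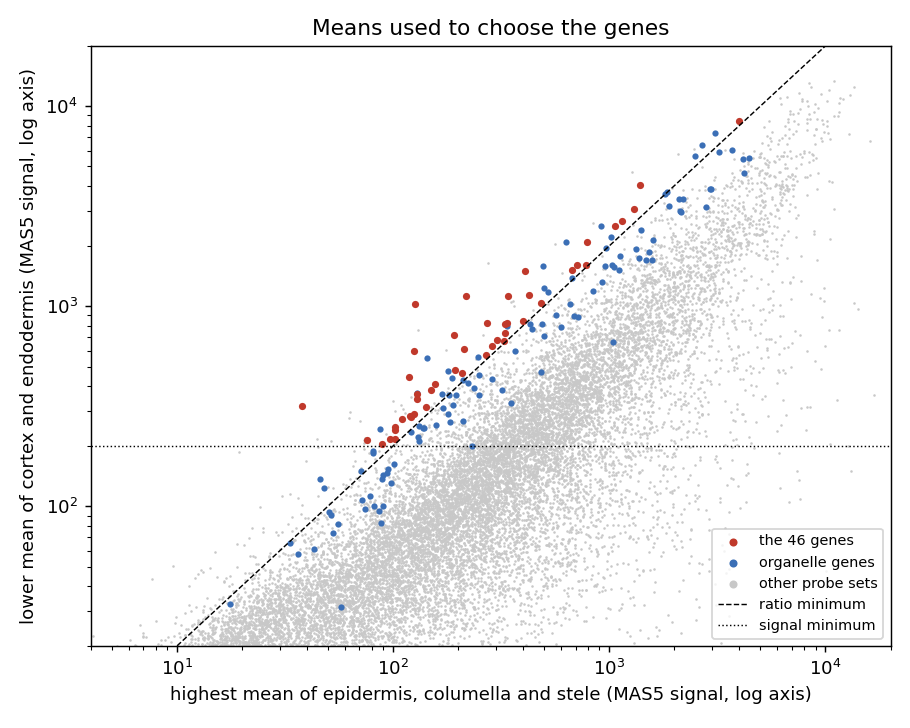
Lower of the cortex and endodermis mean signals (vertical, log axis) against the highest of the epidermis, columella and stele mean signals (horizontal, log axis), 1 point per probe set with a lower mean above 20. The 46 genes (red) lie above the dotted signal minimum of 200 and the dashed ratio minimum of 2, near the edge of the cloud of other probe sets (grey), and plastid and mitochondrial genes (blue) follow the same edge.

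The ratio that chose the genes ranged from 2.05 to 8.40, with a median of 2.40. The highest value, of AT3G28040, rests on a stele mean under 38.05, the signal used as a filter on dim probe sets. It was at least 3 for 9 genes, at least 4 for 4 and at least 5 for 3, so that most genes lay close to the limit. Just inside were AT4G34500, a protein kinase, at 2.05, AT5G25940, related to early nodulins, at 2.05 and AT1G06640, a dioxygenase, at 2.11. Just outside were AT3G05150, of the sugar transporter family, at 2.00 (below the limit before rounding), AT1G07750, a cupin, at 1.99 and the ATP sulfurylase APS4 at 1.99. At the signal limit, GPDHC1 entered with a lower mean of 205.5 and AT1G17300 stayed out with 197.5. In 42 of the 46 genes all 6 cortex and endodermis arrays were brighter than all 10 others, which was so for 2.61% of all 16221 tested probe sets. That count follows from the choice of the genes. The 4 with overlap were AT2G45180, AT4G23870, AT2G07695 and AT1G62510.

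**Figure D2:**
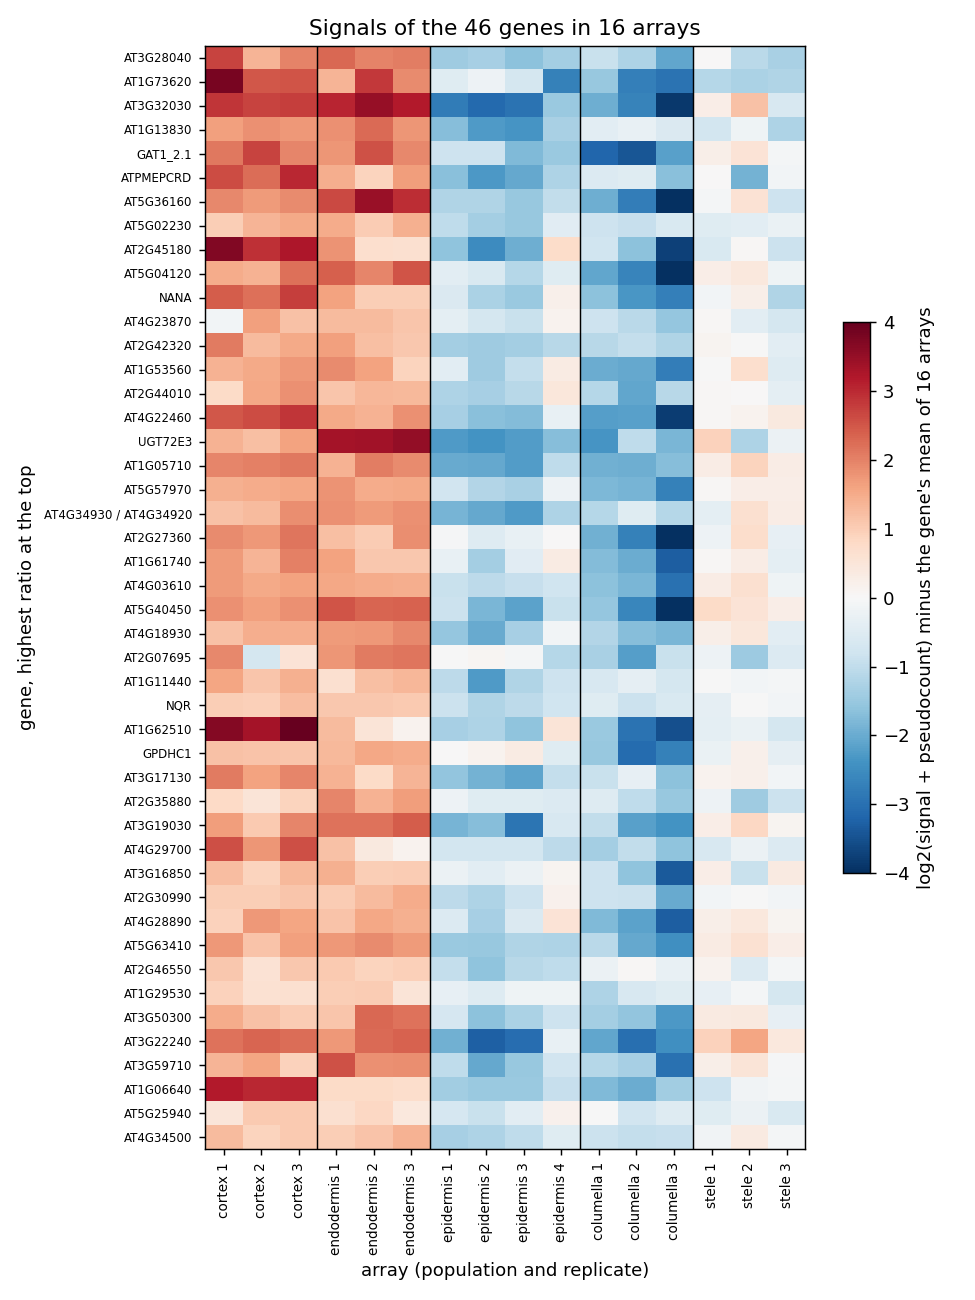
Signals of the 46 genes (rows, highest ratio at the top) in the 16 arrays (columns), as log2(signal + pseudocount) minus the gene's mean over the arrays, red above and blue below. Cortex and endodermis arrays are red apart from cortex replicate 1 for AT4G23870 and cortex replicate 2 for AT2G07695, and most epidermis and columella cells are blue. Epidermis replicate 4 is above the gene's mean for 12 genes, the other epidermis arrays for 1 or 2 and the columella arrays for 0 or 1. Stele arrays vary around the mean, above it for 25, 26 and 10 genes in replicates 1, 2 and 3, and AT1G73620 is blue in all 3.

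Of the populations outside the ground tissue, the stele was most often the brightest. The rule used the epidermis, columella and stele means of these arrays, since it limited the highest of them, and did not use which of them was highest. The counts and calls among these 3 populations are therefore a description of the chosen genes and no independent support. The population with the highest mean below cortex and endodermis was the stele for 39 of the 46 genes (84.8%), the epidermis for 6 and the columella for 1. Among 2716 other nuclear probe sets with means of at least 200 in cortex and endodermis, it was the stele for 940 (34.6%). The stele mean had a median of 40.5% of the lower of the cortex and endodermis means, against 19.1% for the epidermis and 11.96% for the columella. The columella was the lowest population for 33 genes, a count for which the share of other probe sets was not computed. In the limma fit over all 16221 probe sets, 25 of the 46 genes (54.3%) were lower in epidermis than in stele and 0 were higher, at an adjusted p under 0.05, where the shares of all tested probe sets were 19.2% lower and 14.1% higher. In columella 33 genes (71.7%) were lower than in stele and 0 were higher, where the shares were 24.1% and 19.0%. At an unadjusted p under 0.05, 0 genes were higher in epidermis or in columella than in stele. Among the 5409 probe sets with means of at least 200 in cortex and endodermis 21.7% were lower and 14.8% higher in epidermis than in stele, and 33.2% were lower and 18.8% higher in columella.

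The median difference of the 46 genes was -0.99 (log2) for epidermis minus stele, where that of all tested probe sets was 0.02. It was -1.62 for columella minus stele, where that of all was -0.09. Both tests called 20 genes lower than in stele, a count for which the share of all tested probe sets was not computed. Only AT3G28040 had fewer than 3 of the 10 epidermis, columella and stele arrays at or above the filter of 38.05, and the counts were the same over the other 45. Epidermis and columella shared the stele arrays in these tests. Stele arrays gave summed signals of the 46 genes of 19206, 23063 and 15609. Stele replicate 2 was the brightest stele array for 29 genes, where again the share of all tested probe sets was not computed. The stele was the next population for 38 genes when stele replicate 2 was left out. SGN3, the endodermis marker, had signals of 49.8, 48.8, 43.8 and 111 in epidermis, 79.8, 106 and 51.6 in columella and 839.6, 669 and 427 in stele, and its part in the height of the stele was not tested.

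**Figure D3:**
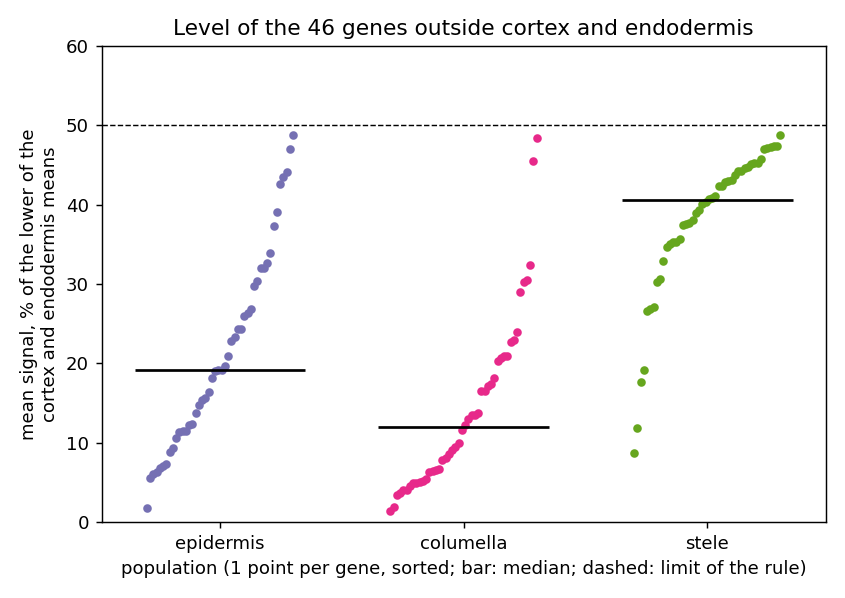
Mean signal of each of the 46 genes in epidermis, columella and stele, as a percentage of the lower of the cortex and endodermis means (vertical), 1 point per gene sorted within its population, with the median as a bar. The rule limits all points to 50% (dashed). Stele points crowd toward that limit with a median of 40.5%, and columella points are lowest with a median of 11.96%.

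Epidermis and columella differed from each other less evenly. Of the 46 genes, 16 (34.8%) were higher in epidermis than in columella and 4 (8.70%) were lower, where the shares of all tested probe sets were 21.8% higher and 23.8% lower, and those of the 5409 bright in both ground tissue layers 28.6% and 23.9%. AT2G27360, of the GDSL lipase family, was higher in epidermis, with 292, 209, 248 and 312 in epidermis and 72.96, 38.1 and 3.28 in columella. The 4 genes lower in epidermis were AT1G13830 at -1.48 ± 0.27, AT2G46550 at -1.02 ± 0.23, AT1G11440 at -0.77 ± 0.29 and the pair AT4G34930 and AT4G34920, whose epidermis mean was under the filter (log2, SE). That count was 2 without epidermis replicate 3, 7 without epidermis replicate 4 and 2 without columella replicate 2. The call of AT1G11440 was lost in 9 of 25 alternatives (limma adjusted p up to 0.126) and that of the pair in 4 (up to 0.0958). AT1G13830 and AT2G46550 kept their calls in all 25. The epidermis means of AT1G13830, 40.7, and AT1G11440, 39.2, were just above the filter of 38.05. The summed signal of the 46 genes was 13525 in epidermis replicate 4 and 6741 to 8910 in the other epidermis arrays. Epidermis replicate 4 was the brightest of the epidermis for 33 genes, a count for which the share of all tested probe sets was not computed. Without that array, 30 genes were lower in epidermis than in stele and the stele was again the next population for 39.

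Most of the 46 genes did not pass the test between cortex and endodermis. The rule set its limits on the lower of these 2 means, which can favour genes whose means are close. The counts of calls and of close means are therefore a description of the chosen genes and no independent support. Cortex was higher for 7 genes (15.2%) and lower for 3 (6.52%), and 36 did not pass (limma, adjusted p under 0.05), where the shares of all tested probe sets were 18.3% higher and 26.1% lower. Among the 5409 probe sets bright in both layers the shares were 23.1% higher and 19.6% lower. Every cortex array was above every endodermis array for 8 genes (22.1% of all tested probe sets) and below for 9 (30.8%). The median difference of the 46 was -0.02 (log2), and that of all tested probe sets was -0.21, or -0.02 after quantile normalization. Cortex and endodermis means were within 1.5 times of each other for 29 genes and within 1.1 times for 12. Of the 36 that did not pass, 21 had a 95% interval of the difference inside 1 on the log2 scale either way, a factor of 2, and for 15 it reached past 1. Higher calls numbered 3 without endodermis replicate 2 and 4 without cortex replicate 3. Lower calls numbered 1 without cortex replicate 2 and 5 without columella replicate 3.

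**Figure D4:**
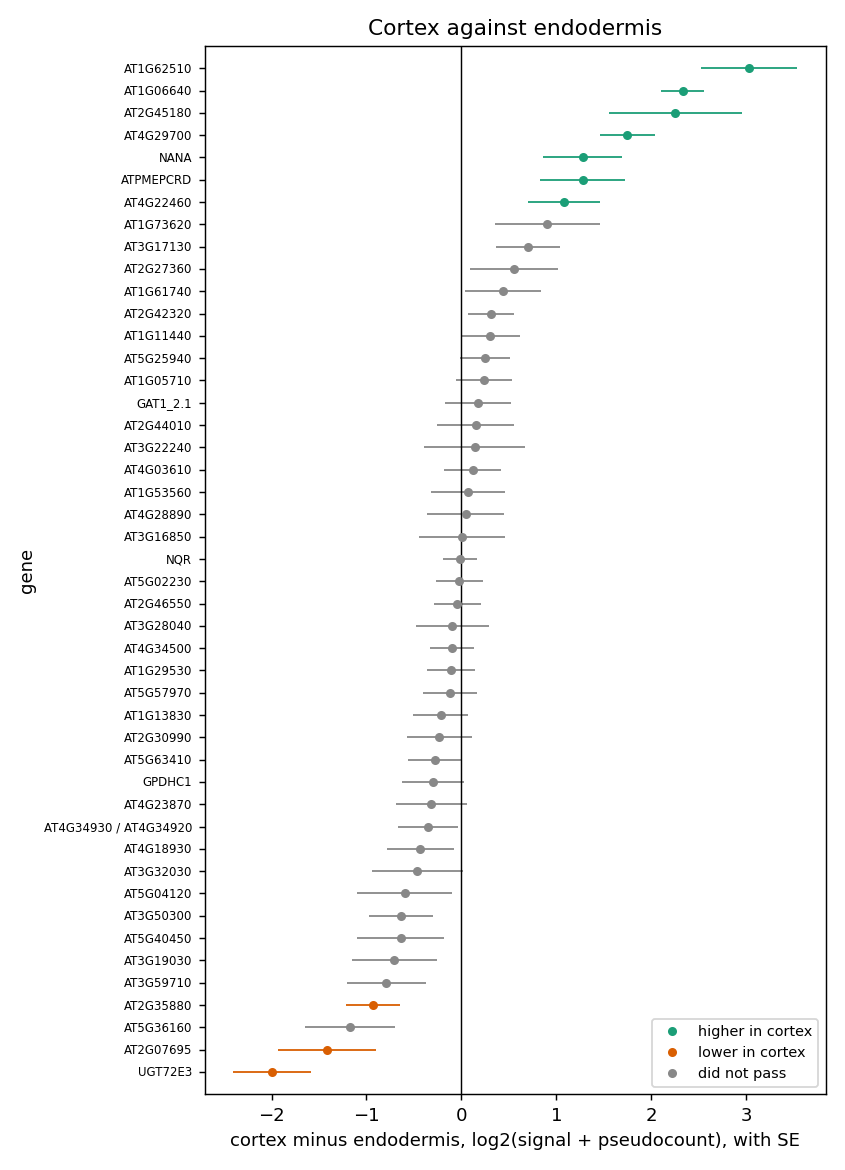
Difference cortex minus endodermis of the 46 genes on the log2(signal + pseudocount) scale (horizontal, points with SE bars), sorted. The 7 genes higher in cortex (green) reach 3.03 for AT1G62510, the 3 lower in cortex (orange) reach -1.996 for UGT72E3, and the 36 that did not pass (grey) lie between.

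Kinases numbered 3. AT3G28040, a leucine-rich repeat receptor-like kinase, had signals of 487, 183 and 288 in cortex, 364, 287 and 303 in endodermis, 18.1, 19.7, 14.1 and 19.3 in epidermis, 30.7, 21.8 and 7.79 in columella and 67.4, 25.6 and 20.7 in stele. All 10 arrays outside cortex and endodermis were below all 6 within. The ratio of 8.40 was computed against a stele mean of 37.9, under the filter of 38.05, so that its size and its rank are not measured values. AT5G63410, of the same family, averaged 732 ± 159 in cortex, 877 ± 61.9 in endodermis, 90.9 ± 11.8 in epidermis, 66.6 ± 39.2 in columella and 332 ± 45.3 in stele (SD). The protein kinase AT4G34500 averaged 667 ± 89.98 in cortex, 715 ± 102 in endodermis, 153 ± 46.7 in epidermis, 160.2 ± 5.57 in columella and 326 ± 68.3 in stele. Receptor-like kinases carry signals from outside the cell across its membrane. None of the 3 passed between cortex and endodermis, where 36 of all 46 genes did not pass. The 95% interval of the log2 difference was -0.90 to 0.71 for AT3G28040, -0.88 to 0.32 for AT5G63410 and -0.59 to 0.40 for AT4G34500. Both AT5G63410 and AT4G34500 were lower in epidermis and in columella than in stele. Over all 46 genes the shares were 54.3% lower in epidermis and 71.7% lower in columella. Those of all tested probe sets were 19.2% and 24.1%, and the group was made after the members were known.

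AT1G73620, of the thaumatin family of pathogenesis-related proteins, had signals of 3229, 1286 and 1329.6 in cortex, 590.1, 1654 and 848 in endodermis, 156, 192, 131 and 25.3 in epidermis, 70.6, 24.7 and 19.9 in columella and 94.6, 86.1 and 90.4 in stele. Cortex and endodermis arrays overlapped, cortex replicate 1 was far above the rest, and the epidermis was next. Its difference between cortex and endodermis was 0.90 ± 0.55 (log2, SE, limma adjusted p = 0.196). Its epidermis minus columella difference was 1.37 ± 0.52 (adjusted p = 0.0383), with epidermis replicate 4 at 25.3, within the columella range. That call was lost in 8 of 25 alternatives, with an adjusted p of up to 0.151.

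Enzymes of specialized metabolism numbered 5, all with the stele as the next population, and all 5 were lower in columella than in stele. The group was made after the members were known, and the shares over all 46 genes were 84.8% with the stele next and 71.7% lower in columella (24.1% of all tested probe sets). AT3G32030, of the terpene synthase family, had 1192, 1065 and 1134 in cortex, 1368, 1869 and 1488 in endodermis, 13.5, 9.12, 11.2 and 48.9 in epidermis, 32.4, 16.2 and 1.27 in columella and 191, 363 and 97.7 in stele. Every endodermis array was above every cortex array, but the difference of -0.46 did not pass (adjusted p = 0.451). Its probe set can read more than 1 transcript. It was lower in epidermis and in columella than in stele, with both means under the filter, so that no size is given.

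AT5G36160, a tyrosine aminotransferase, which starts the breakdown of tyrosine, had 1589.8, 1368 and 1551 in cortex, 2619, 4592 and 3247 in endodermis, 174, 171, 137 and 199.7 in epidermis, 97.9, 51.8 and 6.70 in columella and 384, 614 and 225 in stele. All endodermis arrays were brighter than all cortex arrays, and the difference of -1.17 ± 0.47 missed the threshold (adjusted p = 0.0532). UGT72E3, which attaches glucose to monolignols, the building blocks of lignin, had 406, 351 and 475 in cortex, 1571, 1625 and 1782 in endodermis, 22.4, 19.8, 23.4 and 38.02 in epidermis, 20.8, 68.1 and 34.1 in columella and 287, 56.6 and 125 in stele. Its endodermis arrays were all above its cortex arrays, and its cortex minus endodermis difference of -1.996 ± 0.41 (log2, SE) was the lowest of the 46, 3.99-fold (limma adjusted p = 9.66e-04). Stele replicate 1, at 287, came close to the lowest cortex array, at 351.

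AT1G06640, of the 2-oxoglutarate-dependent dioxygenases, enzymes that need ferrous iron, had 4589, 4072 and 4155 in cortex, 848, 858 and 814 in endodermis, 181, 170.1, 172 and 258 in epidermis, 139, 118 and 182 in columella and 276, 453 and 466 in stele. Cortex was 5.03-fold above endodermis (2.33 ± 0.23, log2, SE, adjusted p = 1.32e-06), with replicates close together in both layers. AT3G50300, of the HXXXD acyltransferase family, averaged 1035 ± 184 in cortex, 1698 ± 660.3 in endodermis, 203 ± 61.3 in epidermis, 127 ± 41.6 in columella and 486 ± 127 in stele. Its difference between cortex and endodermis was -0.63 and did not pass.

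**Figure D5:**
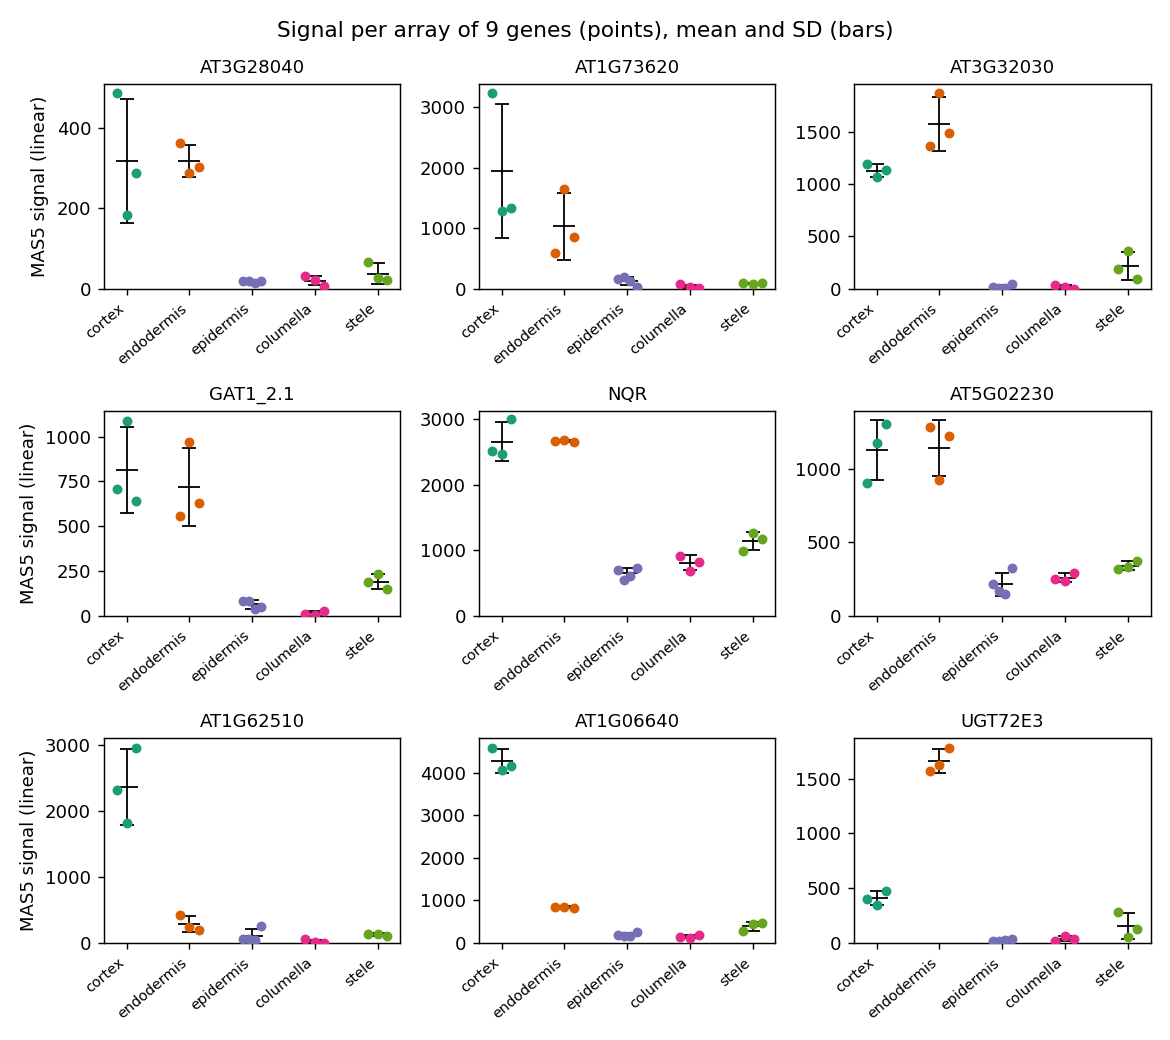
MAS5 signal (vertical, linear, from 0) of 9 genes in each array (points) by population, with the mean and SD as bars. AT3G28040, AT1G73620, AT3G32030 and GAT1_2.1 have high ratios, NQR and AT5G02230 did not pass between cortex and endodermis, AT1G62510 and AT1G06640 are higher in cortex, and UGT72E3 is lower in cortex.

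Lipid transfer proteins, small secreted proteins that bind lipids and serve at the cell surface, gave 3 of the 7 genes that were higher in cortex than in endodermis. Of the 4 genes of lipid transfer and lipases, 3 were higher in cortex and 0 were lower, a grouping made after the members were known, where the shares of all tested probe sets were 18.3% higher and 26.1% lower. AT1G62510 had 2318, 1808 and 2953 in cortex, 427, 249 and 192 in endodermis, 62.4, 66.6, 50.05 and 253 in epidermis, 55.1, 13.4 and 5.86 in columella and 130.4, 142 and 103 in stele. Its cortex arrays did not overlap with any other, while endodermis replicates 2 and 3 were below epidermis replicate 4. Cortex was 8.18-fold above endodermis (3.03 ± 0.51, log2, SE, adjusted p = 1.74e-04), the largest difference of the 46. AT2G45180 had 4965, 2895 and 3545 in cortex, 1309, 599.8 and 578 in endodermis, 115, 56.4, 87.2 and 616 in epidermis, 206, 112 and 18.5 in columella and 237, 379 and 201 in stele. Cortex was above endodermis by 2.25 ± 0.70 (adjusted p = 0.0151), and epidermis replicate 4 was above endodermis replicates 2 and 3. AT4G22460 had 3898, 4295 and 5094 in cortex, 1986, 1827 and 2462 in endodermis, 271, 211, 199 and 555 in epidermis, 140.4, 146 and 39.8 in columella and 708, 755 and 901 in stele. All cortex arrays were above all endodermis arrays, by 1.08 ± 0.38 (adjusted p = 0.03). AT2G27360, of the GDSL lipases, which cut lipid esters, averaged 1189 ± 171 in cortex, 829 ± 268 in endodermis, 265 ± 46.4 in epidermis, 38.1 ± 34.8 in columella and 337 ± 145 in stele, and its difference of 0.55 between cortex and endodermis did not pass. The call of AT2G45180 was lost without endodermis replicate 2 or 3 (adjusted p up to 0.0570). That of AT4G22460 was lost without cortex replicate 2 or 3 or endodermis replicate 1 or 2 (up to 0.101).

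Cell wall proteins numbered 4. The pectin methylesterase ATPMEPCRD (AT2G43050), which removes methyl groups from pectin, had 1055, 806 and 1381 in cortex, 465, 311 and 546 in endodermis, 44.6, 25.05, 32.2 and 63.8 in epidermis, 109.8, 115 and 44.1 in columella and 167, 37.04 and 152 in stele. Every cortex array was above every endodermis array, and the difference was 1.28 ± 0.45 (log2, SE, adjusted p = 0.028). The call was lost without cortex replicate 1 or 3 or endodermis replicate 2, with an adjusted p of up to 0.112. AT1G13830, with an X8 domain, a fold that binds wall glucans, had 557, 641 and 603 in cortex, 644, 862 and 614 in endodermis, 45.5, 27.99, 25.6 and 63.5 in epidermis, 127, 137 and 113 in columella and 98.7, 151 and 67.9 in stele. Cortex minus endodermis was -0.22, which did not pass, and this was the 1 gene whose next population was the columella. AT3G17130, of the invertase and pectin methylesterase inhibitors, averaged 455 ± 73.6 in cortex, 278 ± 64.2 in endodermis, 32.01 ± 15.9 in epidermis, 58.4 ± 29.3 in columella and 122 ± 14.7 in stele. Its cortex arrays were all above its endodermis arrays, and the difference of 0.70 did not pass (adjusted p = 0.0956). AT3G16850, of the pectin lyase-like family, averaged 682 ± 104 in cortex, 680.4 ± 123 in endodermis, 266 ± 44.2 in epidermis, 92.3 ± 72.6 in columella and 304 ± 128 in stele, and its difference was 0.01 with an interval of -0.95 to 0.96.

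The largest group was general metabolism, with 9 probe sets, of which 8 did not pass between cortex and endodermis and 8 were lower in columella than in stele. Over all 46 genes, 36 did not pass between cortex and endodermis and 71.7% were lower in columella than in stele (24.1% of all tested probe sets), and this group too was made after the members were known. GAT1_2.1 (AT1G15040), a class I glutamine amidotransferase, had 707, 1089 and 643 in cortex, 558, 968 and 629 in endodermis, 84.3, 83.3, 38.9 and 49.2 in epidermis, 8.39, 5.31 and 27.1 in columella and 189, 233 and 150.4 in stele. The 6 ground tissue arrays overlapped between layers, and the columella arrays were all below the filter. NQR (AT3G27890), a flavoprotein that reduces quinones with NADPH, had 2509.7, 2466 and 3008 in cortex, 2674, 2692 and 2653 in endodermis, 701, 550.0, 609.9 and 735 in epidermis, 912, 692 and 828 in columella and 992, 1264 and 1177 in stele. The cortex minus endodermis difference was -0.01, with a 95% interval of -0.39 to 0.36, the narrowest of the 46. AT5G02230, of the HAD-like hydrolases, had 908, 1179 and 1304 in cortex, 1285, 927 and 1223 in endodermis, 217, 170.5, 151 and 327 in epidermis, 249, 235 and 293 in columella and 317, 333 and 374 in stele. Cortex and endodermis arrays overlapped, with an interval of -0.55 to 0.51.

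AT5G04120, of the phosphoglycerate mutase family, had 3378, 3153 and 5567 in cortex, 6334, 4671 and 6956 in endodermis, 895, 782, 541 and 856 in epidermis, 279.7, 185 and 27.2 in columella and 1469, 1639 and 1080.2 in stele. Its cortex and endodermis arrays overlapped, and its columella was lower than its stele, at -3.43 ± 0.50 (log2, SE). Epidermis was higher than columella, at 2.57 ± 0.47. AT4G29700, of the nucleotide pyrophosphatases, had 872, 494 and 875 in cortex, 321, 181 and 153 in endodermis, 78.1, 78.7, 77.8 and 61.1 in epidermis, 46.8, 63.7 and 37.95 in columella and 84.7, 115 and 89.96 in stele. Every cortex array was above every endodermis array, by 1.75 ± 0.29, 3.36-fold (adjusted p = 1.49e-04), the 1 call of this group between the layers.

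GPDHC1 (AT2G41540), a glycerol-3-phosphate dehydrogenase that links glycolysis and lipid synthesis, had 209, 204 and 203 in cortex, 229, 276 and 262 in endodermis, 87.7, 97.7, 113 and 59.03 in epidermis, 23.96, 1.48 and 4.72 in columella and 71.8, 103 and 65.7 in stele. All 3 columella arrays were at 24.0 or below, under the filter, and epidermis was higher than columella. The cyclic phosphodiesterase AT4G18930 averaged 3080.2 ± 342 in cortex, 4148 ± 334 in endodermis, 561 ± 363 in epidermis, 401 ± 103 in columella and 1306 ± 374 in stele. AT3G59710, of the short-chain dehydrogenases, averaged 568 ± 133 in cortex, 999.8 ± 305 in endodermis, 87.2 ± 35.3 in epidermis, 66.2 ± 41.2 in columella and 268 ± 54.7 in stele. In both genes all endodermis arrays were above all cortex arrays, with differences of -0.43 and -0.79 that did not pass. The probe set of AT4G34930 and AT4G34920, phospholipase C-like phosphodiesterases, averaged 274 ± 79.6 in cortex, 343 ± 15.99 in endodermis, 19.3 ± 10.1 in epidermis, 45.3 ± 15.4 in columella and 111 ± 40.2 in stele and cannot tell the pair apart.

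Of the 2 genes of protein turnover, the aspartic protease NANA (AT3G12700) had 1424, 1225 and 1801 in cortex, 801, 517 and 515 in endodermis, 171, 101, 86.6 and 297 in epidermis, 76.1, 42.7 and 30.3 in columella and 236, 302 and 105 in stele. Cortex was above endodermis in every array, by 1.28 ± 0.42 (adjusted p = 0.0197), a call lost without cortex replicate 3 or endodermis replicate 2 or 3 (up to 0.0794). AT4G28890, a RING finger ubiquitin ligase of the ATL family, averaged 666 ± 179.7 in cortex, 632 ± 94.2 in endodermis, 189 ± 113 in epidermis, 40.98 ± 24.2 in columella and 286 ± 32.04 in stele and its difference between the layers, 0.05, did not pass. Both were higher in epidermis than in columella, where the share was 34.8% over the whole gene set and 21.8% of all tested probe sets. This group too was made after the members were known.

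Genes of regulation, DNA and the cytoskeleton numbered 3. AT1G05710, a bHLH transcription factor, had 419.6, 444 and 467 in cortex, 283, 455 and 405 in endodermis, 17.6, 16.5, 13.6 and 44.8 in epidermis, 19.1, 18.7 and 23.9 in columella and 128, 196 and 127 in stele. Its epidermis and columella means were under the filter of 38.05. It was lower in both than in the stele, and the size of these differences is not given because it depends on the pseudocount. AT5G57970, a DNA glycosylase of base excision repair, averaged 481 ± 21.4 in cortex, 527 ± 63.3 in endodermis, 92.05 ± 37.1 in epidermis, 32.1 ± 13.2 in columella and 193 ± 17.3 in stele and did not pass between cortex and endodermis, with an interval of -0.72 to 0.48. AT2G35880, of the TPX2 family that binds microtubules, had 1685, 1361 and 1802 in cortex, 3719, 2537 and 3081 in endodermis, 829, 675, 688 and 656 in epidermis, 663, 471 and 330.5 in columella and 830.3, 352 and 527 in stele. Cortex was below endodermis in every array, with a difference of -0.93 ± 0.28 (adjusted p = 0.0129), and the epidermis was the next population. The call was lost without cortex replicate 2 or endodermis replicate 1 (up to 0.0562). AT1G61740, of the TauE and SafE family of anion exporters, was the only transporter and averaged 1108 ± 259 in cortex, 813 ± 186 in endodermis, 260.0 ± 119 in epidermis, 63.7 ± 35.4 in columella and 332 ± 79.4 in stele.

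AT2G07695, at a place on chromosome 2 that carries a copy of mitochondrial sequence, had 557, 81.5 and 208 in cortex, 502, 627 and 652 in endodermis, 138, 150.2, 134 and 58.2 in epidermis, 51.6, 22.4 and 71.4 in columella and 121, 45.2 and 93.1 in stele. Cortex replicate 2 lay below 3 of the epidermis arrays, the cortex arrays overlapped with those of endodermis, and the call of -1.42 ± 0.52 (adjusted p = 0.0347) was lost without cortex replicate 2 or 3 or any endodermis replicate (adjusted p up to 0.224). Its probe set can read more than 1 transcript, so that nuclear origin is uncertain. It was named after its values were seen.

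A further 5 genes fell in none of these groups. AT5G25940, related to early nodulins, had 1465, 2156 and 2156 in cortex, 1602, 1825 and 1391 in endodermis, 641, 555, 769.6 and 1166 in epidermis, 1013, 600.3 and 719 in columella and 740.1, 869 and 674 in stele. Its epidermis, columella and stele arrays overlapped, with log2 differences of -0.01 for epidermis minus stele and 0.01 for columella minus stele. AT3G22240 had 8754, 9714 and 9061 in cortex, 6389.6, 9225 and 9776 in endodermis, 499, 191, 225 and 1569 in epidermis, 448, 228 and 344 in columella and 3650.3, 5784 and 2544 in stele. Its epidermis arrays spread from 191 to 1569, with replicate 4 highest, and its difference to the stele was -3.10 in epidermis and -3.48 in columella, both past the threshold. AT5G40450 averaged 2505 ± 173 in cortex, 3913 ± 269.7 in endodermis, 287 ± 128 in epidermis, 128 ± 109 in columella and 1059.9 ± 179.8 in stele, with every endodermis array above every cortex array. AT1G53560, of the ribosomal protein L18ae family, averaged 1157 ± 134 in cortex, 1142 ± 382 in endodermis, 279 ± 154 in epidermis, 75.5 ± 23.2 in columella and 428 ± 181 in stele. AT2G42320 averaged 459.9 ± 144 in cortex, 363 ± 77.96 in endodermis, 49.8 ± 5.69 in epidermis, 60.1 ± 6.46 in columella and 129 ± 24.8 in stele. None of these 5 passed between cortex and endodermis, where 36 of all 46 genes did not pass.

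For 8 genes no role is given. Their cortex means ranged from 216 to 1516 and their endodermis means from 238 to 2406. None passed between the layers, where 36 of all 46 genes did not pass. AT4G23870, with the highest ratio of them at 2.83, had 90.03, 325 and 232 in cortex, 249, 248 and 224 in endodermis, 71.2, 56.03, 47.4 and 108 in epidermis, 50.5, 41.2 and 26.3 in columella and 102, 70.6 and 56.5 in stele. Cortex replicate 1 was below epidermis replicate 4 and below stele replicate 1, so that its place in the set rests on the other arrays. AT3G19030 averaged 1516 ± 454 in cortex, 2406 ± 246 in endodermis, 161 ± 109 in epidermis, 143 ± 86.5 in columella and 670.0 ± 184 in stele, with all endodermis arrays above all cortex arrays. AT4G03610 averaged 273 ± 19.4 in cortex, 249.8 ± 9.52 in endodermis, 39.01 ± 3.17 in epidermis, 12.3 ± 9.56 in columella and 103 ± 31.1 in stele, with endodermis arrays between 243 and 261. The others were AT2G44010, AT1G11440, AT2G30990, AT2G46550 and AT1G29530, with ratios from 2.13 to 2.66.

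Over the 46 genes the relative spread between replicates was smaller in cortex and endodermis than in the other populations. The genes were chosen to be bright in the former and dim in the latter, and the spread was not compared at like signals. The median coefficient of variation was 17.0% in cortex and 17.4% in endodermis, against 39.0% in epidermis, 45.9% in columella and 24.7% in stele. Mean signals were below the filter of 38.05 for 6 genes in epidermis, 8 in columella and 1 in stele.

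The genes of 17 lists on layers, hormones, barriers, metabolism and iron were set beside the 46, and 0 of their genes were among them. Of 188 listed genes the annotation names 40. JKD, a zinc finger regulator of ground tissue, came closest, with 302, 101 and 159 in cortex, 264, 170.4 and 154 in endodermis, 6.07, 3.53, 4.38 and 4.27 in epidermis, 23.2, 6.28 and 3.78 in columella and 41.3, 1.11 and 15.9 in stele. Its means of 187 in cortex and 196 in endodermis missed the minimum of 200, and its epidermis, columella and stele means were all under the filter of 38.05, so that no ratio is given. The other named ground tissue regulators, BLJ and SCL23, were lower in cortex than in endodermis, with means of 32.8 in cortex and 213 in endodermis for BLJ and 51.7 in cortex and 285 in endodermis for SCL23. Of the 10 named iron regulators, 3 were higher in cortex (BHLH101, BHLH115 and BTSL1) and 3 were lower (BHLH104, BHLH34 and BHLH121), where the shares of all tested probe sets were 18.3% higher and 26.1% lower. The ratio that chose the 46 genes was at most 1.29 for them. None of the 14 suberin, 20 iron transport and 19 nutrient transport genes on the lists was named by the annotation.

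The 46 genes lay on every nuclear chromosome. Of the 45 with 1 gene, 10 lay on chromosome 2 (22.2%, against 16.5% of all named nuclear genes) and 8 on chromosome 5 (17.8%, against 22.5%). Chromosomes 1 and 3 held 10 each and chromosome 4 held 7. There were 0 pairs of these 45 genes within 5 genes of each other in the gene order of RefSeq. The pair AT4G34930 and AT4G34920, read by 1 probe set, was not counted. As 46 of 13898 nuclear probe sets met the rule, counts of 0 among neighbours were likely beforehand. Of 41 genes next to one of the 46 that had a named probe set, 0 met the rule and 8 (19.5%) had both ground tissue means above the other 3 populations, against 18.0% of all named nuclear genes. The cortex marker CO2 (AT1G62500), which stayed at the bottom of the scale, is the neighbour of AT1G62510, the gene with the largest difference between cortex and endodermis.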

How the data were processed

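The deposited values are linear MAS5 intensity signals that the authors computed and scaled array by array, per the submitters' processing notes. The MAS5 version is not given in the sources used here. Controls (64 of 22810 probe sets) were left out. No column was left unused, and 0 of 120 pairs of arrays were identical. Whether replicates are separate cultures is not stated in the labels. The p-values therefore measure only how these samples vary, and the number of arrays limits precision.

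The means of the rule used linear signals and are given without a test. The other comparisons used log2(signal + 10.21), where the pseudocount is the table's 20th percentile, so that folds of dim genes are understated. The filter kept 16221 probe sets that reached 38.05, the table's 40th percentile, in 3 or more arrays, and all 46 genes passed it. A mean per population was fitted with limma 3.58.1 in R 4.3.3 (eBayes with an intensity trend, 2-sided, Benjamini-Hochberg over all tested probe sets, threshold 0.05). The fit was also run on simulated data, with normal noise of the same spread in every population and shifts in cortex alone. That run could not show the effect of an array that stands apart or of unequal spread between populations.

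The genes, gene lists and role groups were chosen with earlier results of these data known. Genes were named by a rule that took the 12 highest ratios, the largest called differences each way between cortex and endodermis without overlap, members with a symbol, list members and the edges of the ratio limit. The rest were named after their values were seen, so that every member is accounted for. Families by words of a gene description were not used, because the annotation table at hand holds none. Promoter sequences were not analysed here. Gene order came from RefSeq (TAIR10.1) and roles are background knowledge. Alternatives were other limits of the rule, quantile normalization, other pseudocounts and filters, array weights, eBayes without a trend, a block by replicate number, the 2 populations alone and leaving out each array. After the data were seen, the rule was also applied with unnamed probe sets and without those of several transcripts.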

Additional observations from a re-analysis of the deposited data

Results flagged for a closer look

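Among the 46 groups of 4 epidermis arrays, 7 genes had 1 array far from the other 3 by Dixon's criterion at 95%, and in all 7 it was epidermis replicate 4. Chance gives about 1 in 20 groups when the groups are independent and their values normal. The 46 groups share the same 4 arrays, so the number of flagged genes cannot be set against that share. In 6 of the 7 that array was the highest. AT2G45180, a lipid transfer protein relative, had 616 there against 56.4 to 115 in the other 3, and AT1G62510, of the same family, had 253 against 50.05 to 66.6. AT1G06640, the dioxygenase, had 258 against 170.1 to 181. AT2G44010 had 194 against 49.97 to 59.8. AT3G32030, the terpene synthase relative, had 48.9 against 9.12 to 13.5, and AT1G05710, the bHLH factor, had 44.8 against 13.6 to 17.6. AT4G29700 was the exception, with 61.1 against 77.8 to 78.7, the lowest of the 4 arrays.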

How the results depend on the processing

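The number of genes meeting the rule, 46, was 127 with a ratio of at least 1.5, 9 with a ratio of at least 3 and 84 with unnamed probe sets counted in. It was 31 to 63 under the other limits, quantile normalization, medians and geometric means, and 44 to 62 when each array was left out, 62 being without stele replicate 2, where 43 of the 46 remained. Between cortex and endodermis, 7 genes were higher in cortex in most alternatives and 3 to 7 when arrays were left out. The count lower in cortex, 3, was 5 with array weights, 7 with the 2 populations alone and 1 to 5 when arrays were left out. The count lower in epidermis than in columella, 4, was 2 with quantile normalization, 2 with the pseudocount at the 40th percentile, 8 with array weights and 2 to 7 when arrays were left out. The cause of these shifts was not tested. Without each array in turn, 23 to 30 genes were lower in epidermis than in stele, 29 to 35 lower in columella than in stele and 14 to 18 higher in epidermis than in columella. UGT72E3, AT1G62510, AT4G29700 and AT1G06640 kept their cortex and endodermis calls in all 25 alternatives. Their place in the set was less steady. With group medians AT1G62510, AT4G29700 and AT1G06640 did not meet the rule. AT1G62510 and AT4G29700 also fell out without endodermis replicate 1, AT1G06640 without stele replicate 1 and UGT72E3 without stele replicate 2. Of 88 calls of the 46 genes in the 4 comparisons, 68 were kept in all 25 and none changed direction. For all tested probe sets the share of higher among cortex and endodermis calls was 41.2%, and 51.1% after quantile normalization.

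Same-numbered arrays did not deviate together more than others (30 pairs, correlations from -0.26 to 0.24, median 0.00). For the 72 pairs with different numbers the correlations ran from -0.37 to 0.36, with a median of 0.00. Whether the numbers pair the samples cannot be told from correlations that spread around 0 in both. With the replicate number as a block, 7 genes were higher and 4 lower in cortex than in endodermis, 32 were lower in epidermis and 35 lower in columella than in stele, and 18 were higher and 6 lower in epidermis than in columella, with 0 higher in epidermis or columella than in stele. Only the epidermis had a replicate 4, so that the block gave this array its own term and took it out of the epidermis mean. The block counts therefore cannot tell pairing from leaving out that array.

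Signals near the bottom of the scale have no reliable ratio, as in epidermis and columella for several of the genes. With 3 or 4 arrays a population, differences under a factor of 2 were often not detectable. The 95% interval reached past that factor for 15 of the 36 genes without a call between cortex and endodermis.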

Other observations

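The 22 plastid and mitochondrial probe sets that met the same means hold genes of photosynthesis, the organelles' own translation, mitochondrial respiration (nad5, cox1 and atp1) and other functions. Among them are psbA, which codes for a core protein of photosystem II, with a mean of 554 in cortex and 888 in endodermis and a ratio of 3.84, and accD, for a subunit of the enzyme that starts fatty acid synthesis, with 2096 in cortex and 2934 in endodermis and a ratio of 3.32. The endodermis mean was above the cortex mean in 20 of the 22, the stele was the next population in 18, and the columella was the lowest in all 22. The stele was next for 34.6% of the 2716 other nuclear probe sets bright in both layers. Shares over all probe sets were not computed for the endodermis and columella counts. These counts describe probe sets chosen by the same means. The probe set of atp1 also lists the nuclear gene AT2G07698.

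Among the 38 probe sets with no gene listed that met the means, the ratio reached 6.01, and all 6 cortex and endodermis arrays were above the 10 others in 37. That count follows from the choice by these means, and the share of all tested probe sets was 2.61%. The stele was the next population in 30, against 34.6% of the 2716 other nuclear probe sets bright in both layers. Cortex was higher than endodermis for 6 and lower for 2, against 18.3% and 26.1% of all tested probe sets.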
